A study of Mus musculus with 10 samples.

Results

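Aminoacyl-tRNA synthetases attach each amino acid to its transfer RNA, and the charged tRNA then delivers the amino acid to the ribosome. Nuclear genes encode both the enzymes that work in the cytosol and those that work on the ribosomes inside mitochondria. For most amino acids the 2 compartments use separate genes, while Gars and Kars, counted here as cytosolic, are known to supply both compartments. Several cytosolic synthetases are bound together in a multisynthetase complex, and many cytosolic synthetase genes are known targets of ATF4, a transcription factor that cells switch on when amino acids run short or the endoplasmic reticulum is stressed.

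The synthetase genes were followed while mouse spermatogonial stem cells were brought into culture. They were chosen by gene name: 36 genes were listed, 20 cytosolic and 16 mitochondrial, of 20174 genes on the arrays. Of these, 34 had a transcript cluster (the group of probes that reads 1 gene) to themselves, 18 cytosolic and 16 mitochondrial. Total RNA was measured on 10 arrays, 2 for each of 5 groups. The starting group (0 weeks) held adult DBA/2 mouse testis cells enriched with magnetic beads for CD9, a surface protein found on spermatogonial stem cells and on several other cell types. The groups of 1 week, 2 weeks and 3 weeks held DBA/2 cells taken through that time of culture, and the last held established cultures of GS (germline stem) cells of DBA/2 origin. The Iscove-based culture medium held the growth factors GDNF (rat, 15 ng/ml) and FGF2 (human, 10 ng/ml) and 1% FBS (foetal bovine serum). Whether the 2 arrays of a group came from separate animals or cultures is not stated in the labels, so a p-value reflects only how far these arrays spread, which may be technical.

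Values are array signals on the deposited linear scale, and changes are differences of log2 means ± SE (n = 2 arrays a group) from limma. A change passed at a Benjamini-Hochberg adjusted p under 0.05, with adjustment over all 20174 genes. Array medians were 112 to 125.3 and upper quartiles 254.7 to 305.7. Across genes, replicate arrays correlated at r = 0.991 to 0.998 and arrays of different groups at 0.706 to 0.984. Signals of different genes come from different probes and are not set against each other. Markers of several cell types differed between the groups. The summed signal of 10 spermatocyte and spermatid markers was 35784 to 35996 at 0 weeks and 1029 to 1625 in all later groups. That of 12 markers of undifferentiated spermatogonia was 2391 to 2450 at 0 weeks, 3401 to 3516 at 1 week, 9305 to 9372 at 2 weeks, 6683 to 6771 at 3 weeks and 10672 to 10825 in GS cells. At 1 week against 0 weeks 5 of those 12 markers were higher and 7 did not pass, with a median change of 0.09 (log2). The summed signal of 4 general germ cell markers was 12160 to 12417 at 0 weeks, 1562 to 1754.5 at 1 week and 6972 to 9092 in the later groups. That of 10 fibroblast markers was 6005 to 6919 at 0 weeks, 47966 to 48284 at 1 week, 6439 to 6451 at 2 weeks, 2784 to 3709 at 3 weeks and 14826 to 15923 in GS cells. Such a sum is weighted to its brightest markers, so near-equal sums do not show equal markers and a lower sum does not show that every marker fell. Sycp1, among the spermatocyte and spermatid markers, had a mean of 742 at 0 weeks and 134 at 1 week. It had 914 at 2 weeks, 784 at 3 weeks and 632 in GS cells. Dcn had a mean of 4132 at 0 weeks and 1739 at 2 weeks, while Thbs1 had 103 and 1383. Among the 4 germ cell markers Mael had a mean of 7581 at 0 weeks and 2508 in GS cells, while Dazl had 1213 and 2809. Against 0 weeks, 1 of these 4 was higher in GS cells, 2 were lower and 1 did not pass, beside 30.8% of all genes higher and 20.4% lower. The lowest signal of any cluster on any array was 30.1, so a signal above 0 does not show that a transcript was present. In RNA from mixed cells, fewer cells of a type and less RNA per cell cannot be told apart.

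Over the 5 groups the cytosolic synthetases had the wider ranges, by their median, and the mitochondrial ones ranges near those of all genes. All 18 cytosolic and 15 of 16 mitochondrial genes differed among the 5 groups by the moderated F test of limma, beside 74.7% of all genes. The mitochondrial histidine enzyme Hars2 did not pass (adjusted p = 0.23) and its 10 arrays lay between 117 and 142. The range of the 5 group means had a median of 1.17 (log2) over the cytosolic genes, 0.63 over the mitochondrial genes and 0.68 over all genes. Ranges ran between 0.45 for Dars and 2.34 for Nars among the cytosolic genes, and between 0.18 for Hars2 and 1.66 for Yars2 among the mitochondrial ones. In linear terms the highest group mean was 1.37-fold (Dars) to 5.07-fold (Nars) the lowest among cytosolic genes, and 1.14-fold (Hars2) to 3.15-fold (Yars2) among mitochondrial genes. Of the cytosolic genes, 11 of 18 were highest at 1 week and 15 were lowest at 0 weeks. Of the mitochondrial genes, 9 of 16 were highest in GS cells and 10 were lowest at 0 weeks.

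**Figure D1:**
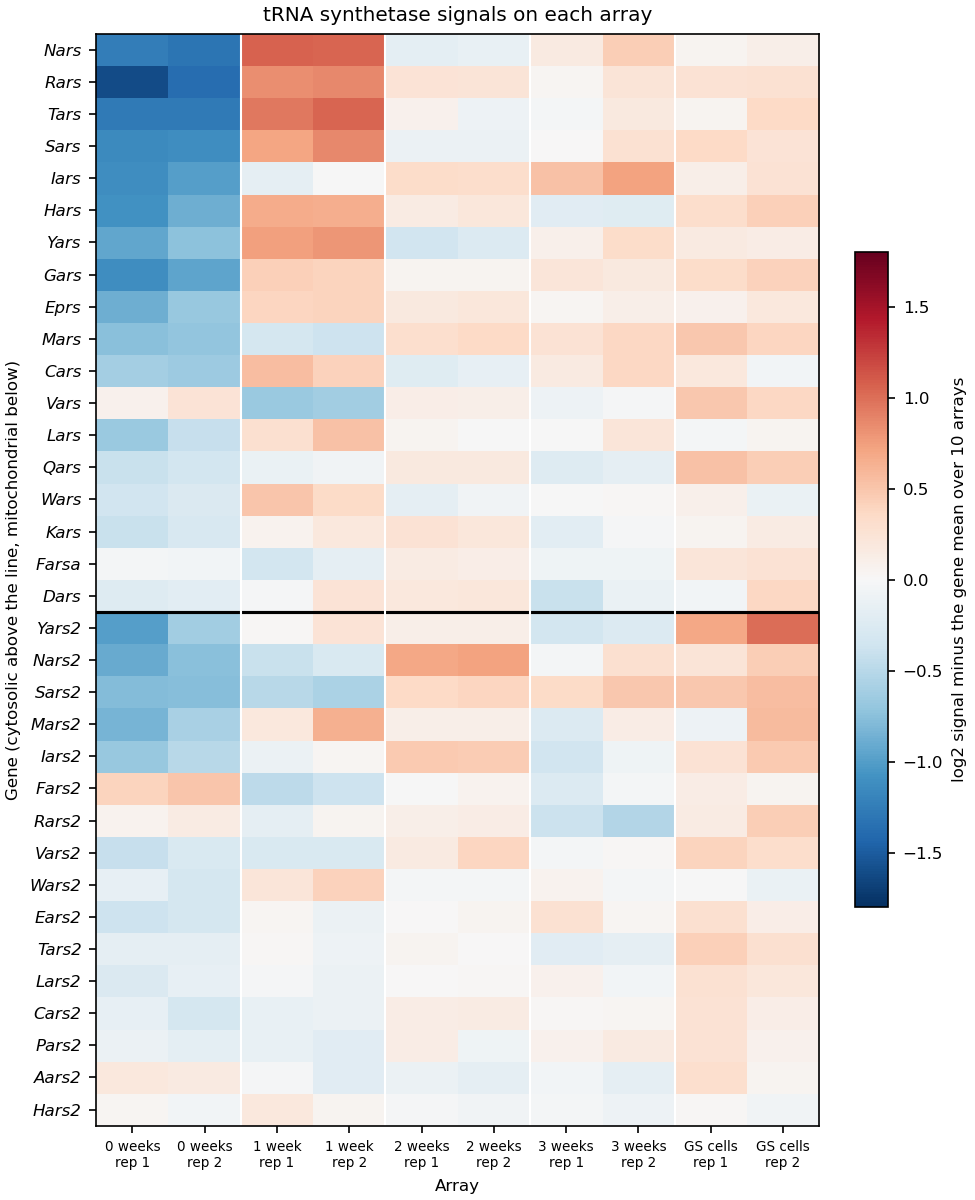
Log2 signal of the 34 measured synthetase genes minus each gene's mean over the 10 arrays, one row per gene and one column per array, in order of culture time with GS cells last. Blue is below and red above the gene's mean. The cytosolic block above the line is mostly blue at 0 weeks and mostly red at 1 week, while 9 of the 16 mitochondrial genes have their highest group mean in GS cells.

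The 5 cytosolic genes with the widest range were Nars, Rars, Tars, Sars and Iars. Nars, which charges tRNA with asparagine, gave signals of 324 and 309 at 0 weeks, 1613 and 1599 at 1 week, 681 and 705 at 2 weeks, 859 and 1043 at 3 weeks and 801 and 829 in GS cells. Its 1 week arrays were above all others, its 0 week arrays were below all others, and the GS arrays lay between those of 2 and 3 weeks. Rars, the arginine enzyme, gave 477 and 561 at 0 weeks, 2586 and 2648 at 1 week, 1726 and 1706 at 2 weeks, 1496 and 1699.9 at 3 weeks and 1744 and 1765 in GS cells. Tars, the threonine enzyme, gave 91.9 and 91.7 at 0 weeks, 429 and 461 at 1 week, 235 and 209 at 2 weeks, 217 and 252 at 3 weeks and 231 and 285 in GS cells. For Rars and Tars too the 1 week arrays stood alone at the top and the 0 week arrays alone at the bottom, with the 2 week and 3 week arrays of Tars overlapping.

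Sars, which charges tRNA with serine, gave 301 and 308 at 0 weeks, 1087 and 1215 at 1 week, 619 and 621 at 2 weeks, 666 and 803 at 3 weeks and 853 and 790.2 in GS cells. Iars, the isoleucine enzyme, gave 801 and 871 at 0 weeks, 1554 and 1732 at 1 week, 2196 and 2167 at 2 weeks, 2509 and 2875 at 3 weeks and 1865 and 2090.1 in GS cells. Sars had the same order as Tars at its ends, whereas Iars was highest at 3 weeks and its 5 groups did not overlap. A second, dimmer cluster of Iars gave 480.1 and 532 at 0 weeks, 1212 and 1314 at 1 week, 1364 and 1327 at 2 weeks, 1702 and 1844 at 3 weeks and 1589 and 1488 in GS cells, and was also highest at 3 weeks.

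Among the mitochondrial enzymes the widest range belonged to Yars2, which charges mitochondrial tRNA with tyrosine. Yars2 gave 127 and 163 at 0 weeks, 255 and 299 at 1 week, 269.6 and 271 at 2 weeks, 199 and 213 at 3 weeks and 407 and 504 in GS cells. Its GS arrays were above all others, and those of 1 and 2 weeks overlapped. Nars2, the mitochondrial asparagine enzyme, gave 109 and 121 at 0 weeks, 154 and 169 at 1 week, 332 and 337 at 2 weeks, 200.2 and 249 at 3 weeks and 241 and 279 in GS cells. Sars2, the mitochondrial serine enzyme, gave 215 and 219 at 0 weeks, 262 and 249.7 at 1 week, 475 and 485 at 2 weeks, 469.9 and 519.8 at 3 weeks and 519 and 547 in GS cells. Nars2 was highest at 2 weeks, and Sars2 stayed high after 2 weeks, with 2 weeks overlapping 3 weeks and 3 weeks overlapping GS cells.

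Mars2, the mitochondrial methionine enzyme, gave 237 and 282 at 0 weeks, 486 and 660.3 at 1 week, 454 and 457 at 2 weeks, 358 and 467 at 3 weeks and 398 and 632 in GS cells. Iars2, the mitochondrial isoleucine enzyme, gave 243 and 274 at 0 weeks, 363 and 398 at 1 week, 540.3 and 531 at 2 weeks, 306 and 368 at 3 weeks and 466 and 538 in GS cells. All later Mars2 arrays were above those of 0 weeks, while the GS arrays lay far apart and overlapped those of 1, 2 and 3 weeks. A second Mars2 cluster stayed between 165 and 216 on all 10 arrays.

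**Figure D2:**
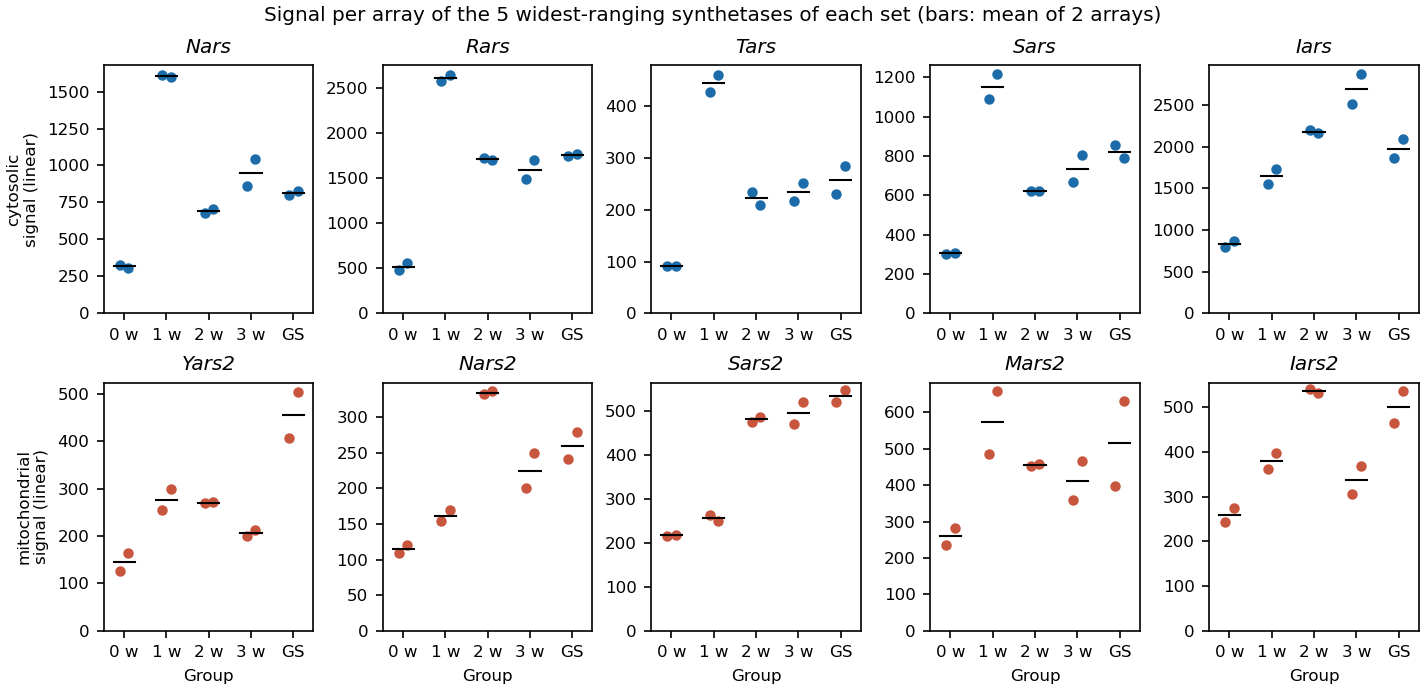
Signal (linear axis from 0, one panel per gene) on each array for the 5 cytosolic and the 5 mitochondrial genes with the widest range of group means, with a point per array and a bar at the mean of the 2 arrays. Nars, Rars, Tars and Sars peak at 1 week, Iars at 3 weeks, Yars2 and Sars2 in GS cells, and Nars2 and Iars2 at 2 weeks.

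At 1 week most cytosolic synthetases were above their level at 0 weeks. Of 18 genes, 15 rose, 2 fell and Dars (0.33 ± 0.15, adjusted p = 0.082) did not pass, against 30.3% of all genes higher and 27.5% lower. The median change was 1.04 for cytosolic genes, 0.14 for mitochondrial genes and -0.04 for all genes. With dim genes left out it was 1.04 for cytosolic genes, 0.15 for mitochondrial genes and 0.10 for all genes kept. With cyclic loess scaling the cytosolic median was 0.67 and the mitochondrial 0.10. Nars and Rars each rose by 2.34 ± 0.09 (adjusted p = 7.62e-09 and 8.2e-09) and Tars by 2.28 ± 0.11 (adjusted p = 4.92e-08), about 5.07-, 5.06- and 4.84-fold. Sars, Hars (histidine), Yars (tyrosine), Gars (glycine), Eprs (glutamate and proline on 1 chain) and Cars (cysteine) rose by 1.11 to 1.92, and Iars, Lars (leucine), Wars (tryptophan), Kars (lysine), Mars (methionine) and Qars (glutamine) by 0.28 to 0.97. Vars, the valine enzyme, had 493 and 510.4 at 1 week, against 828 and 926 at 0 weeks, and fell by 0.80 ± 0.08 (adjusted p = 7.56e-06). Farsa, the catalytic subunit of the cytosolic phenylalanine enzyme, had 354 and 400.3 at 1 week, against 434 and 433 at 0 weeks, and fell by 0.20 ± 0.07 (adjusted p = 0.0356).

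Of the 16 mitochondrial genes, 7 were higher at 1 week, 2 were lower and 7 did not pass, but with cyclic loess scaling 4 were higher and 4 lower. Mars2 rose by 1.13 ± 0.22 (adjusted p = 0.00133), Yars2 by 0.94 ± 0.14 (adjusted p = 0.000192) and Iars2 by 0.56 ± 0.11 (adjusted p = 0.00147), and with both Mars2 clusters averaged its change was 0.51 (adjusted p = 0.00353). Wars2, Nars2, Ears2 and Sars2, the mitochondrial tryptophan, asparagine, glutamate and serine enzymes, rose by 0.24 to 0.55. Fars2, the single-chain mitochondrial phenylalanine enzyme, had 193 and 207 at 1 week, against 351 and 377 at 0 weeks, and fell by 0.86 ± 0.09 (adjusted p = 1.21e-05). Aars2, the mitochondrial alanine enzyme, fell by 0.29 ± 0.10 (adjusted p = 0.0262). Of the fibroblast markers 10 of 10 were higher at 1 week, with a median change of 3.33. All 10 spermatocyte and spermatid markers were lower (median -5.04). The part of either list in the synthetase changes was not tested.

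For 15 amino acids both compartments could be compared, with the Eprs value serving for glutamate and for proline. With its sign counted, the cytosolic change at 1 week was the more positive in 13 of the 15, by a median of 0.88. The difference was widest for arginine (Rars 2.34, Rars2 -0.16) and threonine (Tars 2.28, Tars2 0.12). Methionine (Mars 0.39, Mars2 1.13) and valine (Vars -0.80, Vars2 0.07) ran the other way. For methionine this rests on the brighter Mars2 cluster, as the second gave 193 and 179 at 0 weeks and 179 and 165 at 1 week. Each gene was centred on its own mean over the 10 arrays, and the median of the mitochondrial genes was then taken from that of the cytosolic genes on each array. This gap was 0.47 and 0.50 at 1 week, against -0.61 and -0.41 at 0 weeks. It was 0.03 and 0.02 at 2 weeks, 0.04 and 0.21 at 3 weeks and -0.09 and 0.02 in GS cells, so the gap was highest at 1 week and lowest at 0 weeks, with the other 3 groups between them.

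**Figure D3:**
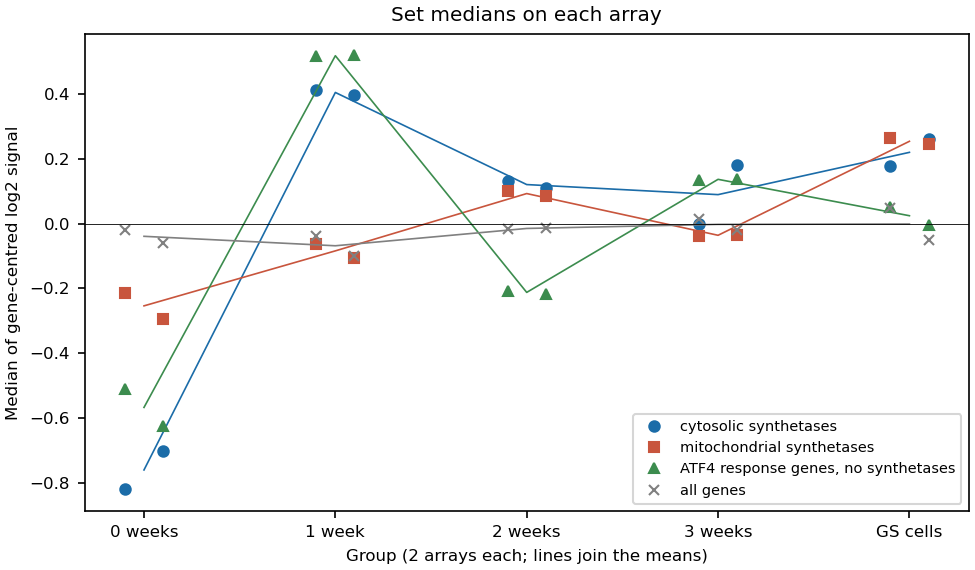
Median of the gene-centred log2 signals on each of the 10 arrays for the 18 cytosolic genes, the 16 mitochondrial genes, the 27 ATF4 response genes described further on and all genes, with lines through the group means. The cytosolic median was -0.82 and -0.70 at 0 weeks and 0.41 and 0.40 at 1 week, while the mitochondrial median was -0.21 and -0.29 at 0 weeks and reached its highest values, 0.26 and 0.24, in GS cells.

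The cytosolic genes differed among themselves. The 8 genes whose products are part of the multisynthetase complex (Dars, Eprs, Iars, Kars, Lars, Mars, Qars, Rars), a grouping from general knowledge made after values were seen, had a median change of 0.71 at 1 week, with 7 higher and 0 lower. The 10 measured genes outside it had a median of 1.53, with 8 higher and 2 lower. At 2 weeks against 1 week the complex genes had a median change of 0.09 (3 higher, 2 lower) and the others -0.60 (2 higher, 8 lower). At 1 week against 0 weeks, Rars was the only complex gene that rose about as much as Nars, Tars and Sars. Eprs, which holds 2 enzymes, rose by 1.18 at 1 week.

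A measure that the arrays do not supply is the sequence before each gene. RefSeq windows (GRCm38.p6) of 250 bases before to 50 bases after the annotated start were found for 13 of the 20 cytosolic and 14 of the 16 mitochondrial genes, and both strands were searched for TGATGNAA, the core of the composite element bound by ATF4 with a C/EBP partner. It was found in 5 of 13 cytosolic genes (38.5%) and 0 of 14 mitochondrial genes, beside 4.51% of 27025 genes with a window of the same length. A match describes letters only and is not a shown binding site, and no match says only that the letters are not in this window. The windows of the 4 measured genes that hold it are printed 5′ to 3′ along the gene's strand, with the match in capitals.
Tars (chr15:11399609-11399908, minus strand): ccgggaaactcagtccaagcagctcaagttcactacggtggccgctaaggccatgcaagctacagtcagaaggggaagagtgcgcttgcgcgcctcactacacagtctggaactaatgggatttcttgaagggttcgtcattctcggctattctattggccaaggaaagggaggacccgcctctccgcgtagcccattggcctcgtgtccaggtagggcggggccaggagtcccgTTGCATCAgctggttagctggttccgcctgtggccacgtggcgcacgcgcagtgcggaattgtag
Yars (chr4:129189653-129189952, plus strand): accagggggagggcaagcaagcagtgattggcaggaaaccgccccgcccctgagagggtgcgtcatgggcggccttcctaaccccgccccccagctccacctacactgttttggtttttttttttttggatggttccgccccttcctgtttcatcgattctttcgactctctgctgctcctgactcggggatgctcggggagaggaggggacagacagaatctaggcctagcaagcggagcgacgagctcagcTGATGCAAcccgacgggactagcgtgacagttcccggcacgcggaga
Gars (chr6:55037751-55038050, plus strand): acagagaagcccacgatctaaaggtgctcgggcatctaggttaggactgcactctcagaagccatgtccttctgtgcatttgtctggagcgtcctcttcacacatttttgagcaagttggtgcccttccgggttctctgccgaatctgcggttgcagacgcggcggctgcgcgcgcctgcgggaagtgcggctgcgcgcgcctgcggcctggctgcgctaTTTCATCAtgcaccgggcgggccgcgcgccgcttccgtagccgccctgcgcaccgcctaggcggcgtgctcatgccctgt
Iars (chr13:49681880-49682179, plus strand): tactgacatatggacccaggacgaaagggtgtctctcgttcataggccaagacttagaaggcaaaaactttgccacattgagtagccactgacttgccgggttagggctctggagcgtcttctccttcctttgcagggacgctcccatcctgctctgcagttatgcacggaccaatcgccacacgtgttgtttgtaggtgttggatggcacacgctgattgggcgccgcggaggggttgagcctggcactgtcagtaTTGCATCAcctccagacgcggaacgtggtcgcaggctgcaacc
The match begins at -15 from the start in Tars, 4 in Yars, -30 in Gars and 8 in Iars, reads as its reverse complement TTNCATCA in Tars, Gars and Iars, and does not overlap another match.

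These 4 genes rose by 2.28 (Tars), 1.60 (Yars), 1.45 (Gars) and 0.97 (Iars) at 1 week. The measured cytosolic genes whose window held no match changed by 1.92 (Sars), 1.18 (Eprs), 0.47 (Kars), 0.39 (Mars), 0.33 (Dars), 0.28 (Qars) and -0.20 (Farsa). No window was found for Nars, Rars, Hars, Cars, Lars, Wars and Vars, so whether they hold the motif is not known. A link between the motif and the changes was not tested. The fifth gene with the motif, Aars (alanine), held 2 matches and shares its cluster with Exosc6, a subunit of the RNA exosome. That shared cluster gave 368 and 370.1 at 0 weeks, 623 and 571 at 1 week, 363 and 363 at 2 weeks, 441 and 449.6 at 3 weeks and 505 and 481 in GS cells. Farsb, the other subunit of the cytosolic phenylalanine enzyme, was read only on a cluster shared with Sgpp2, which gave 519.8 and 621 at 0 weeks, 736 and 804 at 1 week, 837 and 822 at 2 weeks, 664 and 736 at 3 weeks and 837 and 881 in GS cells. Neither cluster can be given to 1 gene, and both genes stay out of all counts. Mars, counted on a cluster of its own, is also named on a cluster shared with Ddit3. That cluster gave 198 and 201 at 0 weeks, 390 and 445 at 1 week and 154 and 142 at 2 weeks. It gave 158 and 162 at 3 weeks and 149 and 133 in GS cells, and cannot be given to 1 gene either.

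Genes listed as responding to ATF4 also changed at 1 week, beside 30.3% of all genes higher and 27.5% lower. A part of ATF4 in the synthetase changes at this or any later time was not tested. Of 30 listed ATF4 response genes that are no synthetases, 27 were measured, and 22 were higher, 1 was lower and 4 did not pass, with a median change of 1.25. Nupr1, a stress-induced chromatin protein, had 1318 and 1290.2 at 1 week, against 128 and 127 at 0 weeks, and rose by 3.35 ± 0.08 (adjusted p = 2.76e-10). Ddit4, an inhibitor of mTORC1 signalling, rose by 2.86 ± 0.09 (adjusted p = 1.26e-09) and the transcription factor Cebpb by 2.38 ± 0.07 (adjusted p = 1.04e-09). Atf4 itself had 243 and 259.9 at 1 week, against 101 and 111 at 0 weeks, a rise of 1.25 ± 0.09 (adjusted p = 5.69e-07). Asns, which makes asparagine, had 2069 and 1999 at 1 week, against 953 and 974 at 0 weeks, a rise of 1.08 ± 0.08 (adjusted p = 1.42e-06).

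At 1 week 30.3% of all genes were higher and 27.5% lower, and the list counts stand beside those shares. Of 19 listed scaffold and partner genes of aminoacylation 17 were measured, and 9 were higher, 3 lower and 5 did not pass at 1 week (6 higher and 5 lower with cyclic loess scaling). The elongation factor subunit Eef1b2 rose by 2.57 ± 0.11 (adjusted p = 1.36e-08) and the tRNA exporter Xpot by 1.31 ± 0.10 (adjusted p = 1.56e-06), while Sephs2, which makes selenophosphate for selenocysteine tRNA, fell by 1.56 ± 0.07 (adjusted p = 1.56e-08). All 19 further genes of mitochondrial translation were measured, and 4 were higher, 4 lower and 11 did not pass. That even balance depended on the setting, with 8 higher and 3 lower under median centring, 7 and 4 with the replicate block, 3 and 7 with cyclic loess scaling, and 3 and 2 without the second 0 week array. Tufm, the mitochondrial elongation factor Tu, rose by 0.74 ± 0.07 (adjusted p = 4.25e-06), Gfm1, an elongation factor G, rose by 0.59 ± 0.09 (adjusted p = 0.000205) and the initiation factor Mtif3 fell by 0.67 ± 0.07 (adjusted p = 1.89e-05).

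Between 1 and 2 weeks more cytosolic genes fell than rose, while more mitochondrial genes rose than fell. At 2 weeks 10 cytosolic genes were lower than at 1 week, 5 were higher and 3 did not pass, against 25.3% of all genes lower and 25.6% higher, with a median change of -0.38. The mitochondrial genes had 6 higher, 1 lower and 9 not passing, with a median of 0.13, beside 0.06 over all genes. Nars fell by 1.21 ± 0.09 (adjusted p = 2e-06), Yars by 1.06 ± 0.10 (adjusted p = 8.94e-06) and Tars by 1.00 ± 0.11 (adjusted p = 3.99e-05). Vars, with 854 and 840.1 at 2 weeks, rose by 0.75 ± 0.08 (adjusted p = 1.91e-05), Mars by 0.68 ± 0.07 (adjusted p = 2.47e-05) and Iars by 0.41 ± 0.10 (adjusted p = 0.00476). Both genes that had fallen at 1 week, Vars and Farsa, were thus among the 5 that rose at 2 weeks, and the fifth was Qars. With quantile scaling the cytosolic median was -0.07 and 8 cytosolic genes were higher.

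Nars2 rose by 1.05 ± 0.12 (adjusted p = 3.45e-05) at 2 weeks, Sars2 by 0.91 ± 0.07 (adjusted p = 3.22e-06) and Vars2, the mitochondrial valine enzyme, by 0.55 ± 0.09 (adjusted p = 5e-04), while Wars2 fell by 0.35 ± 0.09 (adjusted p = 0.00873). For asparagine the 2 compartments therefore changed in opposite directions, with Nars at -1.21 and Nars2 at 1.05, and likewise for serine, with Sars at -0.89 and Sars2 at 0.91. The mitochondrial change was the more positive in 13 of 15 pairs, and methionine and valine were again the exceptions. Both comparisons share the 1 week arrays, so the reversal of the pairs rests in part on the same values. The 10 fibroblast markers were all lower at 2 weeks (median change -2.85) and 10 of 12 markers of undifferentiated spermatogonia were higher (median 1.34), and their part in the synthetase changes was not tested.

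The ATF4 response genes turned down too: 21 of 27 were lower at 2 weeks, 2 higher and 4 did not pass, with a median change of -0.69. Nupr1 fell by 2.67 ± 0.08 (adjusted p = 5.77e-09), the cystine transporter Slc7a11 by 2.54 ± 0.10 (adjusted p = 3.34e-08) and Cebpb by 2.31 ± 0.07 (adjusted p = 6.14e-09). At 2 weeks 25.6% of all genes were higher and 25.3% lower, and the scaffold and partner genes were near those shares. Among the scaffold and partner genes 4 were higher, 4 lower and 9 did not pass, with 7 higher and 1 lower under quantile scaling, 5 and 2 under median centring, and 2 to 4 higher and 2 to 3 lower when a 1 week or 2 week array was left out. Eef1b2 fell by 1.12 ± 0.11 (adjusted p = 1.2e-05), and Eef1e1, an auxiliary protein of the multisynthetase complex, rose by 0.55 ± 0.07 (adjusted p = 0.000157), as did the D-tyrosyl-tRNA deacylase Dtd1 by 0.44 ± 0.07 (adjusted p = 0.000372). The further mitochondrial translation genes had 8 higher, 1 lower and 10 not passing (11 higher and 2 lower with quantile scaling). The tRNA 3′ processing enzyme Elac2 rose by 0.68 ± 0.07 (adjusted p = 2.07e-05), while Gfm1 fell by 0.58 ± 0.09 (adjusted p = 0.000325).

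**Figure D4:**
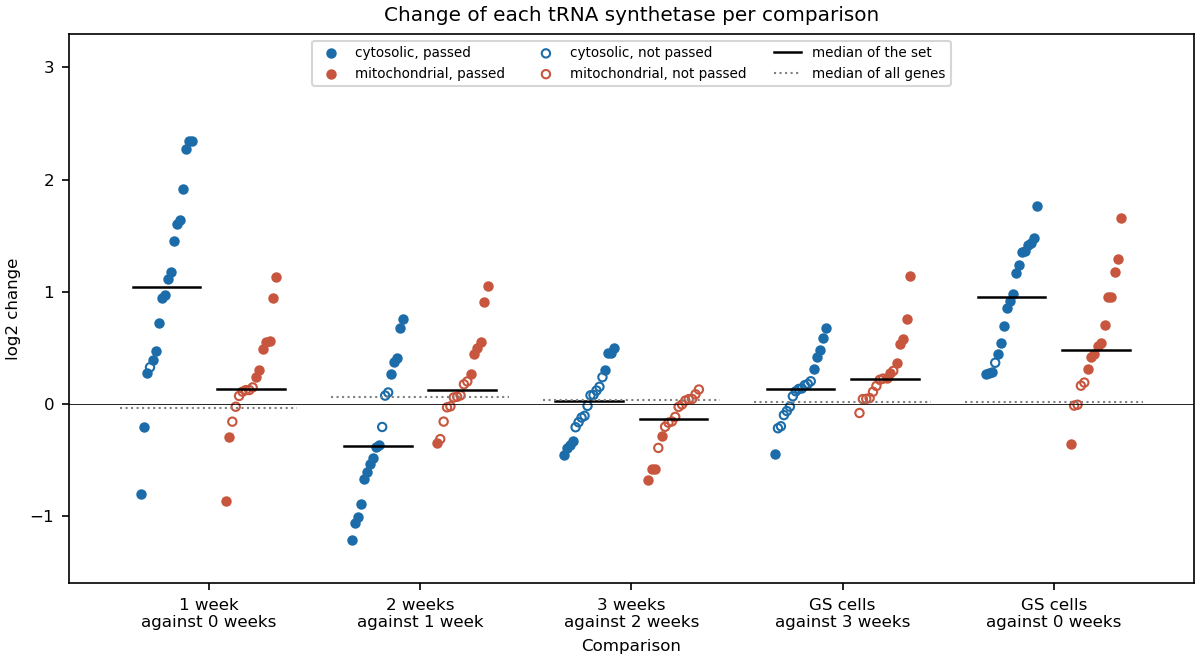
Log2 change of each measured synthetase gene in the 5 comparisons, with cytosolic genes left and mitochondrial genes right in each comparison, filled points for genes that passed, open points for the others, a black bar at the set's median and a dotted line at the median of all genes. The cytosolic points lie mostly above 0 at 1 week against 0 weeks (15 of 18 higher) and mostly below 0 at 2 weeks against 1 week (10 of 18 lower).

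From 2 to 3 weeks the changes were smaller and ran both ways among the cytosolic genes. At 3 weeks 4 cytosolic genes were higher than at 2 weeks, 4 were lower and 10 did not pass (median 0.03), against 7.73% of all genes higher and 16.5% lower. Yars rose by 0.50 ± 0.10 (adjusted p = 0.0058), Nars by 0.45 ± 0.09 (adjusted p = 0.00696), Cars by 0.45 ± 0.10 (adjusted p = 0.0114) and Iars by 0.30. Dars, the aspartate enzyme, had 375 and 459 at 3 weeks, against 566 and 569 at 2 weeks, and fell by 0.45 ± 0.15 (adjusted p = 0.0496). Hars fell by 0.39 ± 0.08 (adjusted p = 0.00757), Qars by 0.37 ± 0.07 (adjusted p = 0.00446) and Kars by 0.33. This balance depends on the scaling of the arrays: with quantile scaling 9 cytosolic genes were higher, 0 lower and the median was 0.26, and without the first 2 week array 0 were higher.

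Of the mitochondrial genes 0 were higher at 3 weeks, 4 were lower and 12 did not pass, with a median of -0.14. At an unadjusted p under 0.05 limma called 0 higher and 6 lower. Over all genes 7.73% were higher, 16.5% were lower and the median was 0.03. With dim genes left out the median was -0.16 for the mitochondrial genes and -0.09 for all genes kept. Iars2 fell by 0.68 ± 0.11 (adjusted p = 0.00266), Rars2, the mitochondrial arginine enzyme, by 0.58 ± 0.11 (adjusted p = 0.00524), Nars2 by 0.58 ± 0.12 (adjusted p = 0.0066) and Vars2 by 0.28. With quantile or cyclic loess scaling 1 mitochondrial gene was higher and the median was -0.02 and -0.00, and without the second 2 week array 2 were lower. The cytosolic change was the more positive in 11 of 15 pairs, most for asparagine (Nars 0.45, Nars2 -0.58). Of the 27 ATF4 response genes 15 were higher at 3 weeks, 0 lower and 12 did not pass, with a median change of 0.29, and without the second 2 week array 9 were higher. Chac1, which degrades glutathione, had 337 and 409 at 3 weeks, against 146 and 138 at 2 weeks, and rose by 1.39 ± 0.13 (adjusted p = 0.000195). The amino acid transporter Slc7a3 rose by 0.97 ± 0.15 (adjusted p = 0.00176) and Asns by 0.87 ± 0.08 (adjusted p = 0.000211). The further mitochondrial translation genes had 0 higher, 5 lower and 14 not passing, with 2 lower under cyclic loess scaling or without either 2 week array and 3 without the first 3 week array. Among them were Gatc, a subunit of the enzyme that makes mitochondrial glutaminyl-tRNA, at -0.83 ± 0.10 (adjusted p = 0.000629) and Gfm2 at -0.39 ± 0.11 (adjusted p = 0.0282). Of the 17 scaffold and partner genes only Sephs1 passed, at -0.72 ± 0.11 (adjusted p = 0.0018). At an unadjusted p under 0.05 limma called 18 ATF4 response genes higher and 2 lower, 0 further mitochondrial translation genes higher and 7 lower, and 1 scaffold or partner gene higher and 3 lower. Of the fibroblast markers 9 of 10 were lower at 3 weeks (median -0.47) and of the markers of undifferentiated spermatogonia 7 of 12 (median -0.42), and their part in these values was not tested.

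Established GS cells were set against cells at 3 weeks of culture. Of the mitochondrial genes 7 were higher in GS cells, 0 lower and 9 did not pass (median 0.23; 8 higher and 0 lower by limma at an unadjusted p under 0.05). Of the cytosolic genes 5 were higher, 1 lower and 12 did not pass (median 0.14), against 29.9% of all genes higher and 17.2% lower. The median over all genes was 0.02. With dim genes left out it was 0.22 over all genes kept, beside 0.23 for mitochondrial and 0.14 for cytosolic genes. Yars2 rose by 1.14 ± 0.14 (adjusted p = 0.000132), Rars2 by 0.76 ± 0.11 (adjusted p = 0.00039) and Iars2 by 0.58 ± 0.11 (adjusted p = 0.00205), and Tars2, Vars2, Aars2 and Lars2, the mitochondrial threonine, valine, alanine and leucine enzymes, by 0.23 to 0.54. Among cytosolic genes Qars, with 1256 and 1183 in GS cells against 743 and 778 at 3 weeks, rose by 0.68 ± 0.07 (adjusted p = 3.88e-05). Hars rose by 0.58 ± 0.08 (adjusted p = 0.00028) and Vars by 0.48 ± 0.08 (adjusted p = 0.000729), with Dars and Farsa at 0.42 and 0.32, whereas Iars fell by 0.44 ± 0.10 (adjusted p = 0.0039).

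The direction of the cytosolic set in that comparison was not settled. With quantile scaling 12 cytosolic genes were lower in GS cells, 1 was higher and the median was -0.26, and with cyclic loess 10 were lower, 2 higher and the median was -0.22. Under the same scalings 3 mitochondrial genes were higher and their median was -0.00 and 0.03. Qars, Yars2, Rars2 and Aars2 were higher in GS cells and Iars was lower with the signals as deposited and under both of those scalings.

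The related lists also moved between 3 weeks and GS cells, beside 29.9% of all genes higher and 17.2% lower. Of the ATF4 response genes 7 were higher in GS cells, 11 lower and 9 did not pass (median -0.08), and with either quantile or cyclic loess scaling 5 were higher and 17 lower. In the fit of only the groups compared 6 were higher and 6 lower, 7 and 7 without the first 3 week array, and 7 and 6 without the second GS array. Chac1 fell by 1.26 ± 0.13 (adjusted p = 4.71e-05) and Slc7a3 by 0.84 ± 0.15 (adjusted p = 0.00113), while Nupr1 rose by 1.48 ± 0.08 (adjusted p = 1.15e-06). The scaffold and partner genes had 11 higher, 0 lower and 6 not passing (median 0.28), against 5 higher and 2 lower under quantile (median 0.02) and under cyclic loess scaling (median 0.05) and 7 higher in the fit of only the groups compared. They were led by Eef1b2 at 0.92 ± 0.11 (adjusted p = 0.000105), Sephs1 at 0.77 ± 0.11 (adjusted p = 0.000313) and Sephs2 at 0.73 ± 0.07 (adjusted p = 2.35e-05). The further mitochondrial translation genes had 10 higher, 0 lower and 9 not passing (median 0.23), against 6 higher and 1 lower under quantile and 6 and 0 under cyclic loess scaling (median 0.11 in both). They were led by Gatc at 0.90 ± 0.10 (adjusted p = 7.59e-05), the elongation factor Tsfm at 0.65 ± 0.18 (adjusted p = 0.0133) and Gfm2 at 0.57 ± 0.11 (adjusted p = 0.00194). At an unadjusted p under 0.05 limma called 12 scaffold and partner genes and 13 mitochondrial translation genes higher, and 0 of either lower. The 10 fibroblast markers were all higher in GS cells (median 1.65), and their part in these values was not tested.

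Over the whole course, GS cells were above the starting cells for nearly every cytosolic synthetase. Of 18 genes 17 were higher in GS cells than at 0 weeks and 0 were lower (18 and 0 by limma at an unadjusted p under 0.05), with Dars (0.37 ± 0.15, adjusted p = 0.0609) not passing, against 30.8% of all genes higher and 20.4% lower. Of the mitochondrial genes 11 were higher, 1 was lower and 4 did not pass. The 0 week arrays are those of the 1 week comparison, and the GS arrays those of the 3 week comparison. Medians were 0.95 for cytosolic, 0.48 for mitochondrial and 0.02 for all genes. With dim genes left out they were 0.95 for cytosolic, 0.52 for mitochondrial and 0.17 for all genes kept. Rars rose by 1.76 ± 0.09 (adjusted p = 1.01e-07), Tars by 1.48 ± 0.11 (adjusted p = 1.75e-06) and Sars by 1.43 ± 0.10 (adjusted p = 7.27e-07). Yars2 rose by 1.66 ± 0.14 (adjusted p = 3.42e-06), Sars2 by 1.30 ± 0.07 (adjusted p = 1.73e-07) and Nars2 by 1.17 ± 0.12 (adjusted p = 1.19e-05), and Fars2, with 292 and 275 in GS cells against 351 and 377 at 0 weeks, fell by 0.36 ± 0.09 (adjusted p = 0.00607). The cytosolic change was the more positive in 13 of 15 pairs, by a median of 0.28, and valine (Vars 0.26, Vars2 0.70) and tyrosine (Yars 0.98, Yars2 1.66) were the exceptions. Of the 10 spermatocyte and spermatid markers 9 were lower in GS cells (median -5.32), and of the 10 fibroblast markers 8 were higher (median 1.33). Of the 12 markers of undifferentiated spermatogonia 11 were higher (median 1.87), and all 5 measured Leydig cell markers were lower (median -1.57). Their part in the synthetase changes was not tested.

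Cyclic loess scaling left 11 cytosolic genes higher in GS cells than at 0 weeks and turned 2, Vars at -0.30 and Farsa at -0.23, to lower, with medians of 0.42 for cytosolic and 0.33 for mitochondrial genes. Of all genes 30.8% were higher in GS cells than at 0 weeks and 20.4% lower. Of the ATF4 response genes 20 were higher in GS cells, 2 lower and 5 did not pass (median 0.58), with 14 higher and 3 lower under cyclic loess. They included the serine hydroxymethyltransferase Shmt2 at 2.51 ± 0.13 (adjusted p = 8.02e-08), Nupr1 at 2.03 ± 0.08 (adjusted p = 1.24e-08) and the proline synthesis enzyme Aldh18a1 at 1.26 ± 0.08 (adjusted p = 2.9e-07). The scaffold and partner genes had 12 higher, 1 lower and 4 not passing (8 higher and 3 lower under cyclic loess), with Eef1b2 at 2.19 ± 0.11 (adjusted p = 6.77e-08), Eef1e1 at 1.53 ± 0.07 (adjusted p = 6.65e-08) and Sephs2 at -1.19 ± 0.07 (adjusted p = 1.73e-07). The further mitochondrial translation genes had 9 higher, 2 lower and 8 not passing, with Tufm at 1.41 ± 0.07 (adjusted p = 4.76e-08), Elac2 at 1.01 ± 0.07 (adjusted p = 9.45e-07) and the initiator tRNA formyltransferase Mtfmt at 0.87 ± 0.07 (adjusted p = 2.45e-06).

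The 7 mitochondrial genes with the narrowest ranges were Hars2, given above, Aars2, Pars2, Cars2, Lars2, Tars2 and Ears2. Pars2 (proline) lay between 79.4 and 110.1 over the 10 arrays, Lars2 (leucine) between 114 and 166, Ears2 (glutamate) between 108 and 170.4, Cars2 (cysteine) between 167 and 247, Tars2 (threonine) between 275 and 423 and Aars2 between 103 and 146. Of these Pars2, Lars2, Ears2, Cars2 and Tars2 were higher in GS cells than at 0 weeks by 0.31 to 0.54, and Aars2 differed by -0.01 without passing. The signals come without a background level, and genes near the lower quartile of an array, 59.5 to 73.7, are not shown to be above background.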

How the data were processed

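RNA of 10 mouse samples was hybridised to Affymetrix Mouse Gene 1.0 ST arrays. The deposited values are linear signal intensity per transcript cluster, and per the file headers the annotation is release na32 on mm9. Scanner software, background correction, summarization and normalization by the authors were not given in the sources used here. A fold ratio of 3 to 0 weeks in the authors' deposited workbook was not used for results. The number of arrays limits the precision.

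Of 28856 clusters, 22439 carried 1 gene symbol, 2815 several and 3602 none. Clusters with 1 symbol were used, the brightest per gene, giving 20174 genes. The log2 signals of all 5 groups were fitted in 1 model with limma 3.58.1 in R 4.3.3 (5 residual and 4.39 prior degrees of freedom, median SD within groups 0.0908), without a replicate block. Each adjusted p is from limma with Benjamini-Hochberg adjustment. The code was tested on simulated data.

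Members and lists were chosen with earlier results of these data known. Array values are given for the 5 genes of each set with the widest range of group means, and changes for the 3 largest rises and falls that passed in each set and comparison, and for up to 3 genes of each related list. The values of 1 gene of the mitochondrial translation list are not reported here. Genes outside that rule (Atf4, Asns, the promoter genes, and those completing a count) were added after values were seen. Alternatives were median centring, quantile or cyclic loess scaling, leaving out dim genes (12780 kept), averaged clusters, trended robust moderation, an offset of 50, only the groups compared, a replicate block and leaving out each array.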

Additional observations from a re-analysis of the deposited data

How the results depend on the processing

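Results are counts of synthetases higher or lower. Scaling changed them most. At 1 week against 0 weeks, cyclic loess gave 4 mitochondrial genes higher and 4 lower, and median centring or fitting only the groups compared gave 1 cytosolic gene lower. At 2 weeks against 1 week, quantile scaling gave 8 cytosolic genes higher and 0 mitochondrial lower, and cyclic loess 2 mitochondrial lower. At 3 weeks against 2 weeks, quantile and cyclic loess gave 9 and 8 cytosolic genes higher, both 0 cytosolic lower and both 1 mitochondrial higher. For GS cells against 3 weeks they gave 1 and 2 cytosolic higher, 12 and 10 cytosolic lower, both 3 mitochondrial higher, and 2 and 1 mitochondrial lower. For GS cells against 0 weeks, cyclic loess gave 11 cytosolic higher and 2 lower. The cause was not tested. Leaving out each array gave 1 to 2 cytosolic and 1 to 2 mitochondrial genes lower at 1 week against 0 weeks, and 0 to 1 mitochondrial lower at 2 weeks against 1 week (0 without the second 1 week array). At 3 weeks against 2 weeks it gave 0 to 5 cytosolic higher (0 without the first 2 week array, 2 without the second or without the second 3 week array), 1 to 5 cytosolic lower (1 without the second 2 week array, 2 without the first or without the first 3 week array) and 2 to 6 mitochondrial lower (2 without the second 2 week array). It gave 1 to 2 cytosolic lower for GS cells against 3 weeks and 0 to 1 mitochondrial lower for GS cells against 0 weeks (0 without the second 0 week array). The labels name nothing that same-numbered arrays share. Their deviations correlated at 0.31 to 0.584 in the 6 pairs among 0 weeks, 1 week, 3 weeks and GS cells, a hint from the data of a shared structure, and at -0.066 to -0.024 in the 4 pairs with 2 weeks, so the numbers were not taken to pair the samples. With the replicate block 16 cytosolic genes were higher at 1 week and 18 in GS cells against 0 weeks, and no synthetase count moved by more than 1.5 times. Of 817 tests of named synthetases under these alternatives, 778 kept their direction and passed, 39 no longer passed and 0 turned. That 0 says little, because the named genes had the largest changes that passed. Several alternatives could not alter a direction: trended robust moderation, the replicate block, only the groups compared, and leaving out an array of neither group. Vars and Farsa, not named for GS cells against 0 weeks, turned from higher to lower there with cyclic loess scaling.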
